A study of Mus musculus with 15 samples.

Results

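Collagen genes were taken as all protein-coding genes with a symbol of the form Col, a number, a and a number in GENCODE release M21, and 44 of the 55335 genes in the files met this. RNA had been sequenced from colon tissue of 15 mice in 3 groups of 5, with 1 library for each mouse. The DSS group received dextran sulfate sodium, a polymer that injures the colon lining and causes colitis. The DSS_ICB group received DSS and immune checkpoint blockade, and the DSS_ICB_Fp group received both and a gavage of Faecalibacterium prausnitzii, a butyrate-producing gut bacterium. All mice therefore carried the DSS injury, and no group without it is analysed here. The labels give no checkpoint antibody, control antibody, control gavage, cage, strain, sex or age, so the effect of each agent cannot be told apart from that of giving it. Mice are numbered within a group only to name them.

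Collagens are built of chains that wind around each other in groups to form a stiff helix. Fibrillar collagens pack into the fibrils that give the gut wall its tensile strength. Basement membrane collagens form or line the thin sheets beneath epithelium and around vessels and muscle cells. The remaining types bind fibrils, form beaded filaments or span cell membranes. In the colon most are made by fibroblasts, smooth muscle, pericytes and endothelium, while some basement membrane chains also come from epithelium. Fibrillar collagen accumulates in scarred bowel after long inflammation. The collagen genes were placed in 3 classes, with 11 fibrillar, 8 basement membrane and 25 other members.

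Levels are given in FPKM, the number of sequenced fragments from a gene divided by transcript length and library size. Depths were estimated at 15.2 to 24.8 M fragments (M, mega), taking the most common binned value of FPKM times transcript length as 1 fragment. This holds only if the authors did not scale the libraries further. A gene was tested where it reached 1 FPKM in at least 5 libraries, which 14385 genes did, among them 24 collagens (7 fibrillar, 6 basement membrane and 11 other). DSS_ICB 3 and DSS_ICB 5 stood apart from the other libraries, with median rank correlations of 0.725 and 0.864 against at least 0.922 for each of the others. Summed smooth muscle markers were 15472 FPKM in DSS_ICB 3 against 1132 to 4934 in the other libraries, and summed epithelial markers were 710 FPKM against 3606 to 7053. Mitochondrially encoded genes took 33.2% of the FPKM of DSS_ICB 3. Changes of the collagens described singly, the medians of the gene lists and the called enzymes are therefore also given without both mice. As a check of the tissue label, the epithelial markers Epcam and Krt8 were found in every library, at 83.0 FPKM or more and 203 FPKM or more, and mesothelial markers were near 0 throughout, with a sum of 0.294 to 1.87 FPKM.

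The sequence upstream of 2 collagens is shown because Col18a1 was the collagen that passed the test in these mice and Col3a1 was the most abundant. Both are RefSeq windows on GRCm38.p6, read 5′ to 3′ on the strand of the gene and ending just before the transcript, or before the furthest upstream exon in GENCODE. Capitals mark a TATA box (TATAAA) in Col3a1, at chr1:45311288-45311537 on the plus strand. Capitals mark a CCAAT box and GC boxes (GGGCGG), each read on either strand, in Col18a1, at chr10:77166549-77166780 on the minus strand.
Col3a1: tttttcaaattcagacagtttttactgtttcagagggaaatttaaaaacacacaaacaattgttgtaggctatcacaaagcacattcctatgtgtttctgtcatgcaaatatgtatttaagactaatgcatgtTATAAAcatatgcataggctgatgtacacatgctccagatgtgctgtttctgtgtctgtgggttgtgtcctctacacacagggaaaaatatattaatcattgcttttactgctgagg
Col18a1: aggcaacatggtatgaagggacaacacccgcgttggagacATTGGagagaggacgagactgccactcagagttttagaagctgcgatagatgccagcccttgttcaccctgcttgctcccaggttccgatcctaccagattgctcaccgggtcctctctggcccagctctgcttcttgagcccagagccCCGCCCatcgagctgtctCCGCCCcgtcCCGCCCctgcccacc

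The Col3a1 window held 1 TATA box and no GC box, and 35.2% of its bases were G or C. The Col18a1 window shown held 3 GC boxes, 1 CCAAT box and no TATA box. Of its 250 bases before it was cut back to the GENCODE exon, 62% were G or C. A second RefSeq window of Col18a1, at chr10:77113706-77113955, held no GC, CCAAT or TATA box and was 57.6% G or C. Windows were listed for 35 of the 44 collagens, 38 windows in all. Over the 250 bases upstream of the start, a GC box lay in 57.9% of collagen windows and in 32.7% of the 32851 windows of all genes. The shares were 34.2% and 33.8% for a CCAAT box, 13.2% and 12.4% for a TATA box, and 44.7% and 42.2% for the letters CAGAC, which SMAD proteins can bind, all on either strand. The median window was 59% G or C for collagens and 52.4% for all genes, and the shares were not adjusted for this. A match describes the letters only.

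Several collagen genes lie beside each other. Col4a1 and Col4a2 start head to head on chromosome 8 and their annotated 5′ ends overlap by 22 bases at chr8:11312805-11312826, which reads as follows on the plus strand, the strand of Col4a2.
Col4a1 and Col4a2 shared start: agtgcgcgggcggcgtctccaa
Col4a3 and Col4a4 also lie head to head, 71 bases apart on chromosome 1, and Col4a5 and Col4a6 do so 1308 bases apart on chromosome X. Col3a1 and Col5a2 lie tail to tail, 24614 bases apart. Whether counting used the strand of the reads is not stated, and only the 22 shared bases of Col4a1 and Col4a2 overlap between these 4 pairs.

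Collagen transcripts took 0.0758% to 0.267% of the summed FPKM of a library (0.0822% to 0.148% in DSS) and were led by a few genes. The summed FPKM of the 44 collagens in DSS 1 to 5 was 519, 347, 503, 464 and 396. In DSS_ICB 1 to 5 the sum was 648, 509, 1150, 556 and 911, and in DSS_ICB_Fp 1 to 5 it was 282, 538, 298, 414 and 362. DSS_ICB 3 and 5 were the highest of all mice, and DSS_ICB 2 was below DSS 1 and DSS_ICB_Fp 2, so the groups overlapped. The collagens with the highest mean, Col3a1, Col6a1, Col1a1 and Col4a1, supplied between 55.4% and 62.2% of the sum in every mouse. In bulk tissue, more collagen-producing cells and more collagen RNA per cell cannot be told apart.

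**Figure D1:**
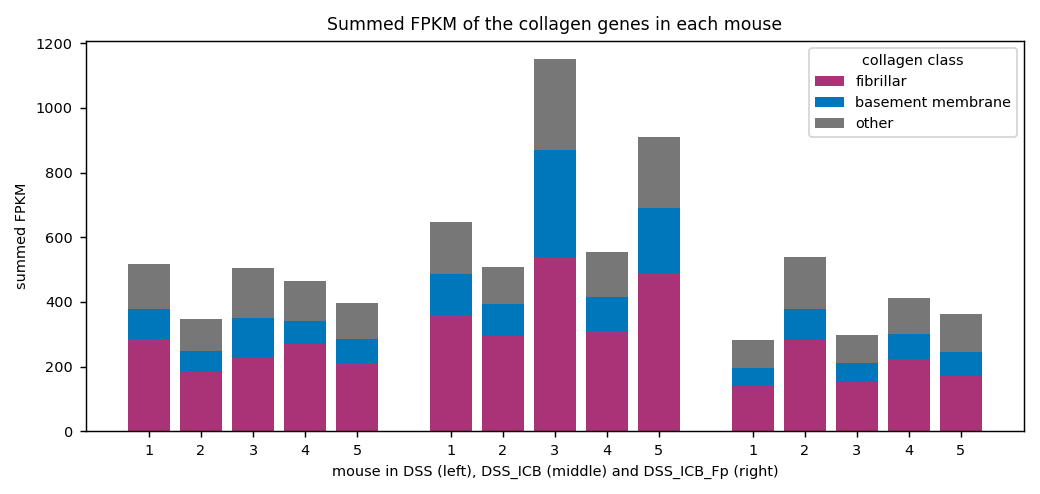
Stacked bars give the summed FPKM of the fibrillar, basement membrane and other collagens in each mouse, grouped by treatment, on an axis that starts at 0. The tallest bars are DSS_ICB 3 at 1150 and DSS_ICB 5 at 911, and the remaining 13 mice lie between 282 and 648.

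Fibrillar genes made up 45.4% to 58.1% of collagen FPKM over all 15 mice. Basement membrane genes made up 15.6% to 28.9%, with the highest share in DSS_ICB 3. The other collagens made up 22.6% to 25.2% in DSS_ICB, below all DSS mice (26.5% to 30.3%) and below all DSS_ICB_Fp mice (27.0% to 32.4%). These shares sum to the whole, so a lower share of 1 class goes with a higher share elsewhere, and no test was made of them.

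The first comparison, DSS_ICB against DSS, concerns checkpoint blockade on top of DSS injury. Collagen estimates were mostly higher in DSS_ICB, most of all for Col18a1, Col4a1 and Col4a2, but no collagen passed an adjusted p under 0.05 (limma, Benjamini-Hochberg over all tested genes), where 0.0209% of all tested genes were called higher. At an unadjusted p under 0.05 in the same limma fit, 12 of the 24 collagens were higher and 0 lower, against 7.08% of all tested genes that were higher. The 5 DSS_ICB mice lay above all 5 DSS mice for 2 collagens, Col3a1 and Col18a1, and 1.21% of all tested genes showed this. The median change was 0.54 on the log2(FPKM + 1) scale over the collagens and 0.02 over all tested genes. By class the median was 0.64 for fibrillar, 0.77 for basement membrane and 0.37 for other collagens. Without DSS_ICB 3 and DSS_ICB 5 these medians were 0.34, 0.36 and 0.08, the median over all collagens was 0.19, and 3 of 24 collagens were higher at an unadjusted p under 0.05 by limma, against 6.41% of the genes tested without those mice.

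The second comparison, DSS_ICB_Fp against DSS_ICB, concerns the bacterial gavage on top of DSS and blockade. Col18a1 was the only collagen that passed, lower in DSS_ICB_Fp, where 0.125% of all tested genes were called lower. At an unadjusted p under 0.05 by limma, 17 of the 24 collagens were lower and 0 higher, against 12.4% of all tested genes that were lower. For Col3a1, Col5a2, Col4a1 and Col18a1 all 5 DSS_ICB_Fp mice lay below all 5 DSS_ICB mice, which 2.46% of all tested genes did. The median change of the collagens was −0.72 and that of all tested genes −0.04, with class medians of −0.84 for fibrillar, −0.95 for basement membrane and −0.51 for other collagens. Without DSS_ICB 3 and DSS_ICB 5 the median was −0.37, the class medians were −0.60, −0.54 and −0.27, and 10 of 24 collagens were lower at an unadjusted p under 0.05 by limma, against 14.3% of the genes tested without those mice. Both comparisons use the same DSS_ICB mice, so they are not independent of each other.

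The last comparison sets DSS_ICB_Fp against DSS alone. No collagen passed, and 0% of all tested genes were called lower. At an unadjusted p under 0.05 by limma 0 collagens were lower or higher, with a background of 0.82% of tested genes lower and 0.591% higher. The fit used 1 spread for all 3 groups, so the spread of the DSS_ICB mice entered this comparison too. Without DSS_ICB 3 and 5, 2 collagens were lower at that limma threshold, against 2.93% of the genes tested. With the 2 compared groups only, 1 was lower (2.42%), and without DSS_ICB_Fp 2, 3 were lower (0.469%). No collagen had groups that did not overlap, where 0.195% of tested genes lay lower without overlap. The median change was −0.15 against −0.01 over all tested genes, and 23 of the 24 collagens had an estimate below 0. The estimates farthest from 0 were −0.47 for Col6a3, where 4 of 5 DSS_ICB_Fp mice lay below all DSS mice, and −0.38 for Col3a1, with a 95% interval of −0.83 to 0.07.

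**Figure D2:**
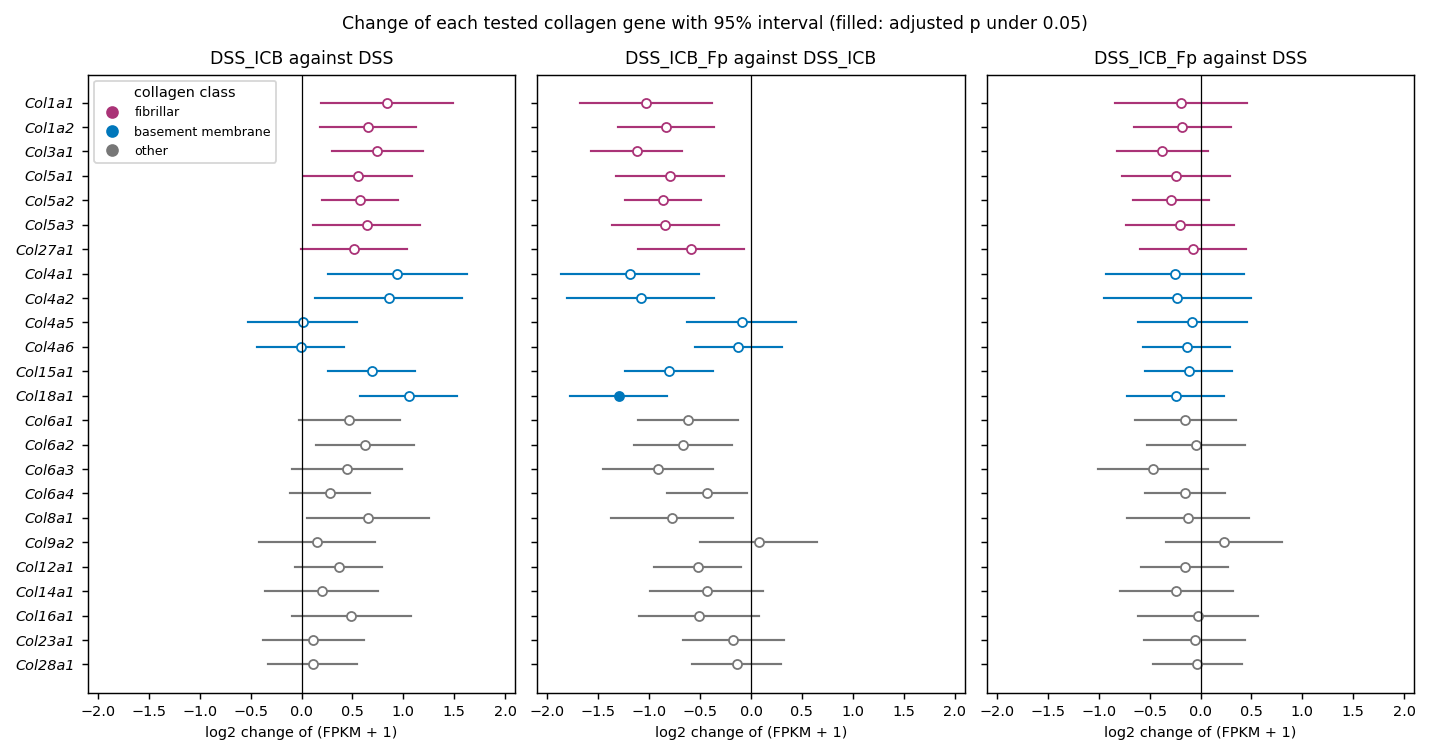
Points give the limma change of each of the 24 tested collagens on the log2(FPKM + 1) scale with its 95% interval, coloured by class, in 1 panel per comparison. Estimates lie mostly right of 0 for DSS_ICB against DSS and left of 0 for DSS_ICB_Fp against DSS_ICB, where only Col18a1 is filled (adjusted p under 0.05), while intervals include 0 in the last panel.

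Among fibrillar collagens, Col3a1 (chr1:45311538-45349706), the chain of type III collagen found in soft, distensible tissue, was the most abundant. It measured 159, 112, 115, 144 and 115 FPKM in DSS 1 to 5, 196, 171, 262, 175 and 294 in DSS_ICB 1 to 5, and 74.2, 142, 84.7, 119 and 84.2 in DSS_ICB_Fp 1 to 5. Every DSS_ICB mouse was above every mouse of the other groups. The mean was 1.71 times that of DSS (129 ± 21.2 against 220 ± 55.4 FPKM, SD, n = 5), a limma change of 0.75 ± 0.21 (SE) with an adjusted p of 0.381. From DSS_ICB to DSS_ICB_Fp the limma change was −1.12 ± 0.21 with an adjusted p of 0.0515, just outside the threshold, and the DSS_ICB_Fp mean was 101 ± 28.6 FPKM. It passed that threshold in 6 of 26 alternative analyses. The Col3a1 changes without DSS_ICB 3 and 5 were 0.50 and −0.87.

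Col1a1 (chr11:94936224-94953042) and Col1a2 (chr6:4504814-4541544) encode the chains of type I collagen, the main component of thick fibrils. Col1a1 measured 48.4, 22.3, 43.9, 54.0 and 35.4 FPKM in DSS, 65.1, 51.2, 130, 56.7 and 71.9 in DSS_ICB, and 23.6, 56.6, 24.1, 43.1 and 32.96 in DSS_ICB_Fp. DSS_ICB 3 was far above its group, and DSS_ICB 2 was below DSS 4 and DSS_ICB_Fp 2. The limma change was 0.84 ± 0.30 for DSS_ICB against DSS (adjusted p = 0.43) and −1.03 ± 0.30 for DSS_ICB_Fp against DSS_ICB (adjusted p = 0.103). Without DSS_ICB 3 and 5 these changes were 0.54 and −0.74. Col1a2 measured 39.5, 21.2, 29.97, 37.3 and 28.5 FPKM in DSS, 48.2, 38.0, 67.4, 39.0 and 57.3 in DSS_ICB, and 21.1, 41.2, 21.01, 30.2 and 25.6 in DSS_ICB_Fp. The groups overlapped through DSS 1, DSS_ICB_Fp 2 and the lowest DSS_ICB mice. Its limma changes were 0.66 ± 0.22 (adjusted p = 0.418) and −0.83 ± 0.22 (adjusted p = 0.0873), and 0.43 and −0.60 without DSS_ICB 3 and 5.

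Type V chains are built into type I fibrils and set their width. Col5a2 (chr1:45374321-45503282) measured 15.3, 12.9, 12.9, 12.3 and 11.2 FPKM in DSS, 19.0, 14.2, 26.2, 16.3 and 25.1 in DSS_ICB, and 8.60, 14.1, 9.06, 11.3 and 9.48 in DSS_ICB_Fp. All DSS_ICB_Fp mice were below all DSS_ICB mice, by a small margin for DSS_ICB_Fp 2, and DSS overlapped both groups. The limma change was 0.57 ± 0.17 for DSS_ICB against DSS (adjusted p = 0.418) and −0.86 ± 0.17 for DSS_ICB_Fp against DSS_ICB (adjusted p = 0.0594), and 0.33 and −0.62 without DSS_ICB 3 and 5. Col5a1 averaged 14.4 ± 2.86 FPKM in DSS mice, 22.5 ± 8.19 in DSS_ICB and 12.2 ± 3.85 in DSS_ICB_Fp (SD, n = 5). Col5a3 averaged 4.74 ± 1.36, 8.09 ± 2.92 and 4.09 ± 1.65 FPKM in the same order. Col27a1, a fibrillar chain best known from cartilage, averaged 1.58 ± 0.549, 2.93 ± 1.91 and 1.43 ± 0.305 FPKM, with DSS_ICB 3 highest at 6.07 FPKM. None of these 3 passed in any comparison, with limma changes of 0.52 to 0.64 for DSS_ICB against DSS and −0.59 to −0.84 for DSS_ICB_Fp against DSS_ICB. Leaving out DSS_ICB 3 and 5 gave 0.24 and −0.48 for Col5a1, 0.34 and −0.54 for Col5a3 and 0.098 and −0.17 for Col27a1.

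The remaining fibrillar genes were barely detected. Col2a1, the main collagen of cartilage, was listed at 0 in 11 of 15 libraries and never exceeded 0.0182 FPKM. Col11a1, Col11a2 and Col24a1 reached at most 0.291, 0.446 and 0.393 FPKM, and none of these 4 was tested.

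**Figure D3:**
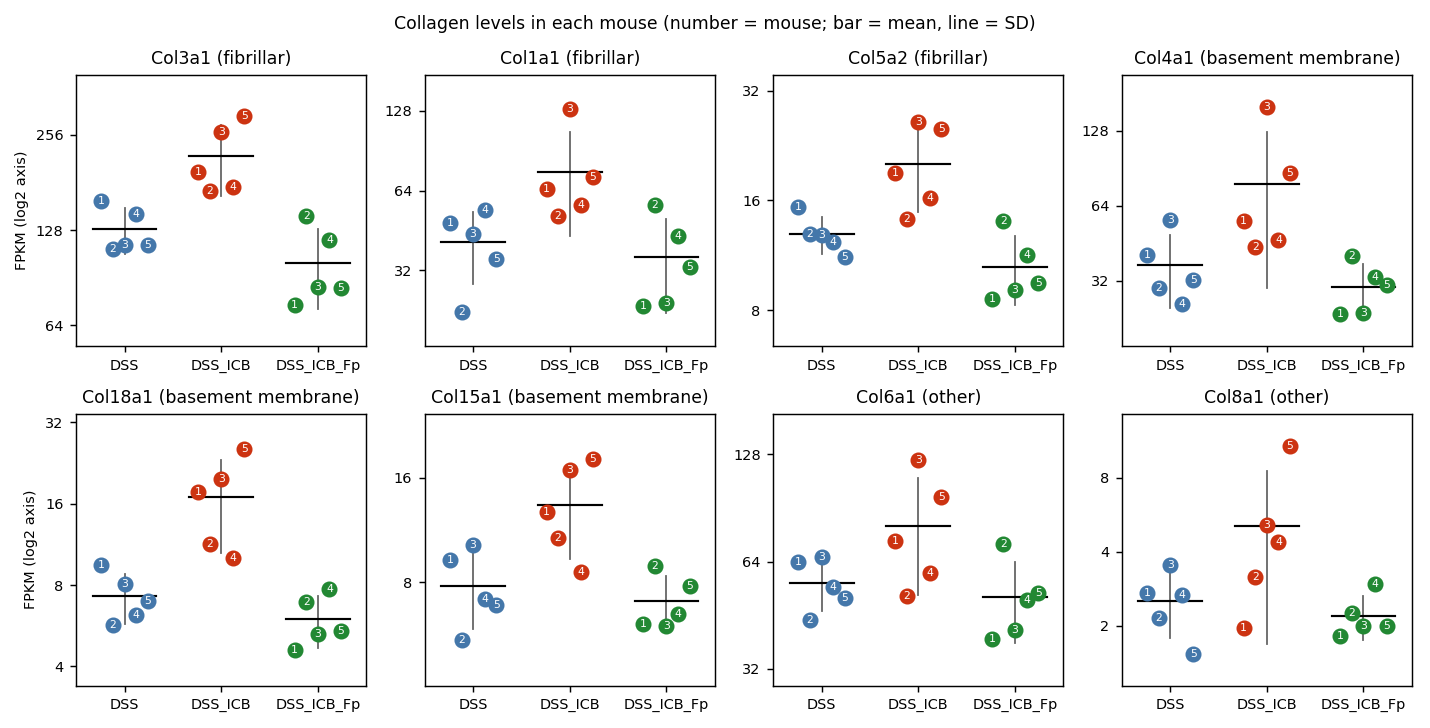
Each circle is 1 mouse, numbered, for 8 collagens on a log2 axis of FPKM, with the bar at the group mean and the line spanning 1 SD on each side. DSS_ICB lies highest in each panel, DSS_ICB 3 or DSS_ICB 5 is the top mouse in every panel, and for Col3a1 and Col18a1 no DSS_ICB mouse overlaps another group.

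Among basement membrane collagens, Col18a1 (chr10:77052178-77166548 on the minus strand) encodes the chain of type XVIII collagen, a proteoglycan of vascular and epithelial basement membranes whose end fragment is endostatin, an inhibitor of vessel growth. It measured 9.503, 5.70, 8.05, 6.19 and 6.997 FPKM in DSS 1 to 5, 17.7, 11.4, 19.8, 10.1 and 25.5 in DSS_ICB 1 to 5, and 4.59, 6.95, 5.29, 7.73 and 5.39 in DSS_ICB_Fp 1 to 5. Every DSS_ICB mouse was above every mouse of both other groups. The means were 7.29 ± 1.52, 16.9 ± 6.32 and 5.99 ± 1.30 FPKM (SD, n = 5). Col18a1 fell by 1.30 ± 0.22 on the log2 scale from DSS_ICB to DSS_ICB_Fp (limma adjusted p = 0.034), and the DSS_ICB_Fp mean was 0.355 of the DSS_ICB mean. For DSS_ICB against DSS the change was 1.05 ± 0.22, which did not pass (limma adjusted p = 0.247), although it ranked 13 of all tested genes by p. DSS_ICB_Fp and DSS differed by −0.25, with a 95% interval of −0.72 to 0.23.

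The Col18a1 call was kept in 11 of 26 alternative analyses, and over all 26 the adjusted p lay between 0.00927 and 0.212. Leaving out any of DSS 2 to 5, DSS_ICB 3 or 5, or DSS_ICB_Fp 1, 2, 3 or 5 ended it, with adjusted p of 0.0529 to 0.0609, 0.0679 to 0.0776 and 0.0709 to 0.134 for the respective groups. The size of the change stayed between −1.45 and −1.14 when 1 library was left out. Without DSS_ICB 3 and DSS_ICB 5 together it was −0.99 (limma adjusted p = 0.113), and the change from DSS to DSS_ICB was 0.74 (limma adjusted p = 0.624).

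Col15a1 (chr4:47208161-47313167), the closest relative of Col18a1, links basement membranes to the matrix around vessels and muscle. It measured 9.29, 5.43, 10.3, 7.16 and 6.87 FPKM in DSS, 12.7, 10.7, 16.8, 8.53 and 18.1 in DSS_ICB, and 6.05, 8.92, 5.97, 6.48 and 7.77 in DSS_ICB_Fp. DSS_ICB 4 overlapped both other groups. The limma change was 0.69 ± 0.20 (adjusted p = 0.393) for DSS_ICB against DSS and −0.81 ± 0.20 (adjusted p = 0.0844) for DSS_ICB_Fp against DSS_ICB, and 0.42 and −0.53 without DSS_ICB 3 and 5.

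Col4a1 (chr8:11198423-11312826) and Col4a2 (chr8:11312805-11449287) encode the chains of the type IV network found in nearly all basement membranes. Col4a1 measured 40.5, 29.9, 56.2, 25.8 and 32.3 FPKM in DSS, 55.8, 43.8, 160, 46.6 and 86.9 in DSS_ICB, and 23.6, 40.4, 23.8, 33.2 and 30.8 in DSS_ICB_Fp. DSS_ICB 3 was the highest mouse by far, and DSS 3 was above 3 of the DSS_ICB mice. The limma changes were 0.94 ± 0.32 (adjusted p = 0.418) and −1.19 ± 0.32 (adjusted p = 0.0873), and without DSS_ICB 3 and 5 they were 0.44 and −0.69. Col4a2 measured 27.9, 19.0, 40.4, 26.0 and 23.3 FPKM in DSS, 36.4, 29.1, 122, 34.0 and 61.6 in DSS_ICB, and 16.7, 32.2, 17.0, 26.9 and 22.9 in DSS_ICB_Fp. DSS_ICB 3 was again far above the rest, and DSS 4 was the one mouse with more Col4a2 than Col4a1. Its changes were 0.86 ± 0.34 (limma adjusted p = 0.43) and −1.09 ± 0.34 (limma adjusted p = 0.112). The first was 0.53 without DSS_ICB 3 alone, and without DSS_ICB 3 and 5 they were 0.31 and −0.54.

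Col4a5 and Col4a6 encode a second type IV network, known from smooth muscle basement membranes. Col4a5 averaged 4.71 ± 0.287 FPKM in DSS mice, 5.20 ± 2.88 in DSS_ICB and 4.56 ± 1.65 in DSS_ICB_Fp (SD, n = 5). Col4a6 averaged 2.01 ± 0.316, 2.14 ± 1.21 and 1.75 ± 0.392 FPKM. Their limma changes were 0.01 and −0.01 for DSS_ICB against DSS, with 95% intervals of −0.52 to 0.54 and −0.44 to 0.42, and without DSS_ICB 3 and 5 they were −0.38 and −0.31. Both were highest in DSS_ICB 3, at 9.92 and 4.17 FPKM, the mouse with the highest smooth muscle marker sum. The difference between this pair and Col4a1 with Col4a2 was not tested. Col4a3 and Col4a4, chains best known from kidney, were between 0.0149 and 0.123 FPKM in every library and were not tested.

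The other collagens were led by type VI, which forms beaded filaments around cells. Col6a1 (chr10:76708792-76726168) measured 63.9, 43.9, 65.8, 54.5 and 50.5 FPKM in DSS, 73.0, 51.3, 123, 59.3 and 97.1 in DSS_ICB, and 38.8, 71.8, 41.1, 50.01 and 52.4 in DSS_ICB_Fp. DSS_ICB 2 and 4 lay within the DSS range. The limma changes were 0.47 ± 0.23 (adjusted p = 0.454) and −0.62 ± 0.23 (adjusted p = 0.154). The first was 0.30 without DSS_ICB 3 alone, and without DSS_ICB 3 and 5 they were 0.13 and −0.28. Col6a2 (chr10:76595762-76623630) measured 25.7, 15.5, 24.8, 22.4 and 21.4 FPKM in DSS, 34.6, 25.3, 53.0, 24.1 and 39.5 in DSS_ICB, and 15.9, 30.8, 16.9, 21.6 and 22.6 in DSS_ICB_Fp. DSS_ICB 2 and 4 overlapped both other groups for this chain as well. Col6a3 (chr1:90765923-90843971) measured 18.3, 14.6, 24.0, 15.1 and 15.9 FPKM in DSS, 22.2, 14.1, 43.9, 18.6 and 30.1 in DSS_ICB, and 9.67, 17.6, 11.2, 13.1 and 11.01 in DSS_ICB_Fp. For Col6a3, 4 of the DSS_ICB_Fp mice were below every DSS mouse and every DSS_ICB mouse, and DSS_ICB_Fp 2 was not. Its limma change from DSS_ICB to DSS_ICB_Fp was −0.91 ± 0.25 (adjusted p = 0.0924), against −0.67 ± 0.23 for Col6a2 (adjusted p = 0.129). For DSS_ICB against DSS and DSS_ICB_Fp against DSS_ICB, the changes without DSS_ICB 3 and 5 were 0.34 and −0.38 for Col6a2 and 0.058 and −0.52 for Col6a3.

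Col8a1 (chr16:57624258-57754737), a short-chain collagen of vessel walls, measured 2.71, 2.16, 3.53, 2.67 and 1.54 FPKM in DSS, 1.96, 3.16, 5.13, 4.38 and 10.8 in DSS_ICB, and 1.82, 2.24, 1.99, 2.95 and 1.98 in DSS_ICB_Fp. The groups overlapped and DSS_ICB 5 supplied the highest value. The limma changes were 0.65 ± 0.28 (adjusted p = 0.434) and −0.78 ± 0.28 (adjusted p = 0.145), and without DSS_ICB 3 and 5 they were 0.23 and −0.35.

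Fibril-associated collagens bind the surface of fibrils and link them to other matrix. Col12a1 averaged 2.98 ± 0.571 FPKM in DSS mice, 4.28 ± 1.60 in DSS_ICB and 2.57 ± 0.588 in DSS_ICB_Fp, and Col14a1 averaged 8.58 ± 2.72, 9.99 ± 3.23 and 7.12 ± 2.47 (SD, n = 5). Col16a1 averaged 8.24 ± 1.97, 12.997 ± 7.64 and 8.19 ± 2.42 FPKM, with DSS_ICB 3 at 26.3 FPKM far above its group. Col9a2, best known from cartilage, averaged 0.974 ± 0.304, 1.31 ± 0.839 and 1.40 ± 0.841 FPKM and was the only tested collagen with a positive estimate for DSS_ICB_Fp against DSS_ICB (0.07, with a 95% interval of −0.50 to 0.64). None of the 4 passed in any comparison. The Col16a1 changes without DSS_ICB 3 and 5 were 0.095 and −0.12, against 0.49 and −0.51 with them. Those of Col12a1, Col14a1 and Col9a2 were 0.085, 0.029 and −0.18 for DSS_ICB against DSS and −0.24, −0.27 and 0.41 for DSS_ICB_Fp against DSS_ICB, so Col9a2 changed sign in the first.

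Col6a4, Col23a1 and Col28a1 complete the tested set. Col6a4, a further type VI chain, averaged 1.14 ± 0.3995, 1.62 ± 0.598 and 0.921 ± 0.360 FPKM across the groups in the order DSS, DSS_ICB, DSS_ICB_Fp. Col23a1, a transmembrane collagen, averaged 1.40 ± 0.689, 1.61 ± 0.783 and 1.29 ± 0.562 FPKM. Col28a1, known from peripheral nerve, averaged 1.30 ± 0.223, 1.56 ± 0.680 and 1.31 ± 0.607 FPKM. Their limma changes lay between 0.11 and 0.28 for DSS_ICB against DSS and between −0.43 and −0.14 for DSS_ICB_Fp against DSS_ICB, and none passed. With DSS_ICB 3 and 5 left out they were 0.16 and −0.31 for Col6a4, −0.13 and 0.075 for Col23a1 and −0.13 and 0.096 for Col28a1.

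Of the other class, 14 collagens were not tested. Col20a1 reached 1.204 FPKM in 1 mouse, and each of the remaining 13 stayed under 1 FPKM in all libraries. The highest of these were Col8a2 at up to 0.936 FPKM, Col13a1 at up to 0.803 and Col7a1, the anchoring fibril of skin, at up to 0.543. Col6a5, Col25a1, Col17a1 and Col26a1 peaked at 0.296, 0.214, 0.206 and 0.206 FPKM, and Col9a3 at 0.155. Col6a6, Col9a1, Col10a1, Col19a1 and Col22a1 never exceeded 0.1 FPKM. Col22a1, a collagen of tissue junctions, was chosen for mention after its values were seen. It was 0.0562 to 0.0955 FPKM in DSS_ICB, 0.0151 to 0.0443 in DSS and 0 to 0.0428 in DSS_ICB_Fp. DSS_ICB thus did not overlap either other group, at levels under the filter for the test. How many genes at such levels show the same was not counted, so this observation has no background to be read against.

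**Figure D4:**
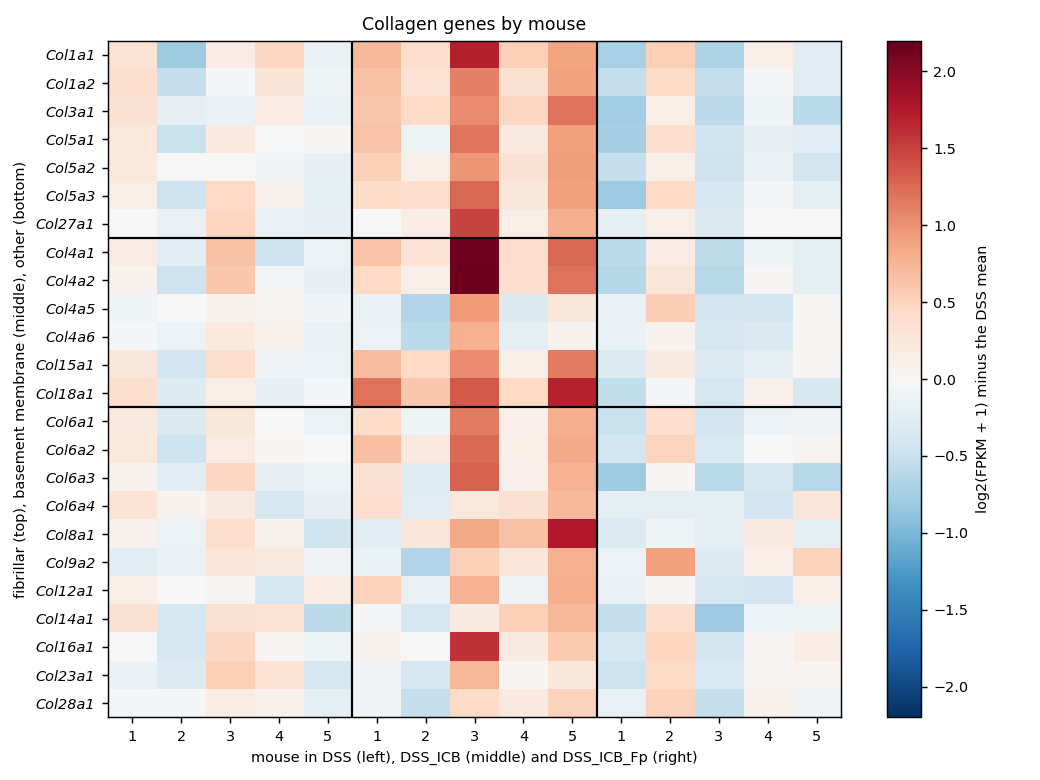
Each cell gives log2(FPKM + 1) of 1 tested collagen in 1 mouse minus the mean of the DSS mice, with genes in rows by class and mice in columns by group. Red cells gather in the DSS_ICB columns and are darkest in DSS_ICB 3 and 5, while DSS_ICB 2 is blue for many collagens, among them Col4a5, Col4a6, Col14a1 and Col28a1.

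Within groups, the same mice were often the highest. DSS_ICB 3 was the highest DSS_ICB mouse for 15 of the 24 tested collagens and DSS_ICB 5 for the other 9, while DSS_ICB 2 was the lowest for 18. In DSS_ICB_Fp, mouse 2 was the highest for 20 of the 24. DSS_ICB_Fp 2 had the highest smooth muscle marker sum of its group at 4290 FPKM, against 1484 to 3698 in the others. The part of tissue composition in these differences was not tested.

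Ratios between chains within a mouse do not depend on how the library was scaled. Col18a1 to Col15a1 was 1.02, 1.05, 0.783, 0.865 and 1.02 in DSS 1 to 5, 1.39, 1.06, 1.18, 1.18 and 1.41 in DSS_ICB 1 to 5, and 0.759, 0.779, 0.886, 1.19 and 0.694 in DSS_ICB_Fp 1 to 5. All 5 DSS_ICB mice were above all 5 DSS mice, and DSS_ICB_Fp 4 overlapped DSS_ICB. The difference was 0.39 log2 for DSS_ICB against DSS (exact two-sided permutation p = 0.00794, the smallest that 5 against 5 mice can give; 0.143 after Benjamini-Hochberg adjustment over 18 tests). It was −0.55 log2 for DSS_ICB_Fp against DSS_ICB (exact permutation p = 0.0317, adjusted 0.25). Leaving out DSS_ICB 3 and 5 gave differences of 0.35 and −0.51 log2.

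The groups overlapped for each of the other 5 ratios. Col6a2 to Col6a1 averaged 0.393 ± 0.0285 in DSS, 0.442 ± 0.0393 in DSS_ICB and 0.422 ± 0.0116 in DSS_ICB_Fp (exact permutation p = 0.0556 for DSS_ICB against DSS, adjusted 0.25, n = 5). Col1a1 to Col1a2 averaged 1.29 ± 0.172, 1.47 ± 0.268 and 1.27 ± 0.137, and Col4a2 to Col4a1 0.754 ± 0.147, 0.704 ± 0.0450 and 0.754 ± 0.0477. Col3a1 to Col1a1 averaged 3.36 ± 0.971, 3.11 ± 0.744 and 2.90 ± 0.430, and Col5a2 to Col1a1 0.347 ± 0.135, 0.281 ± 0.0526 and 0.308 ± 0.0591. None of the 18 ratio tests passed after adjustment.

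**Figure D5:**
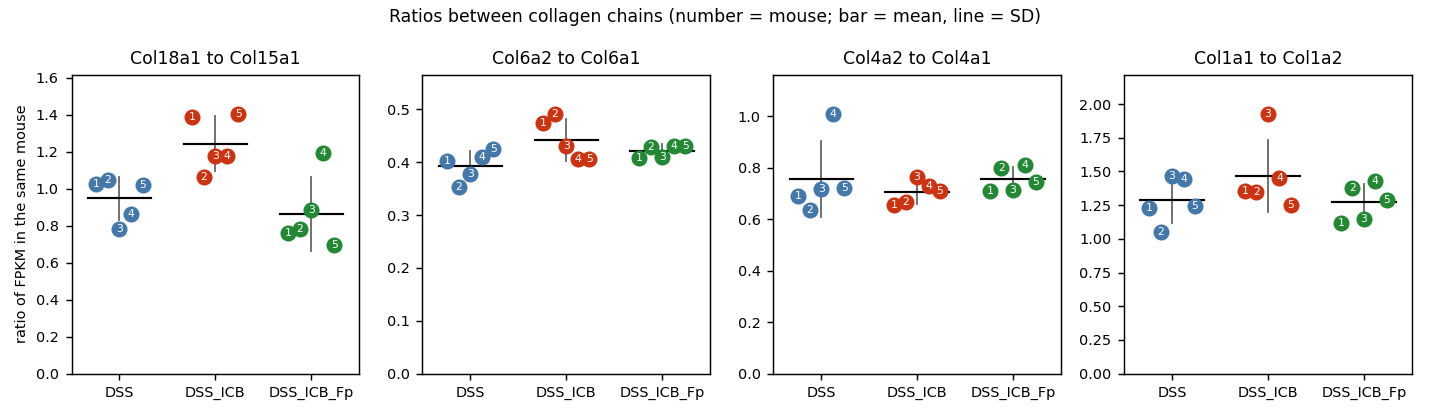
Circles give the FPKM ratio of 2 collagen chains in each numbered mouse for 4 of the 6 ratios, on linear axes from 0, with bars at the mean and lines of 1 SD. For Col18a1 to Col15a1 the DSS_ICB mice lie between 1.06 and 1.41, above all DSS mice (0.783 to 1.05), and the other panels overlap.

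Genes that act on collagen were read from 7 lists, none of which was tested as a list. Of the 19 tested genes that modify or fold collagen in the cell, 0 passed in any comparison, with median changes of 0.29 for DSS_ICB against DSS and −0.36 for DSS_ICB_Fp against DSS_ICB. P3h1, a prolyl hydroxylase, and its partner Crtap had estimates of −0.68 ± 0.15 and −0.63 ± 0.20 in the latter (limma adjusted p = 0.0712 and 0.119). Of 10 tested genes for processing and cross-linking outside the cell, 0 passed, with medians of 0.66 and −0.74. Lox, the enzyme that cross-links fibrillar collagen, averaged 2.17 ± 0.937 FPKM in DSS mice, 8.04 ± 5.93 in DSS_ICB and 1.72 ± 0.670 in DSS_ICB_Fp (limma adjusted p = 0.314 and 0.061). Every DSS_ICB mouse was above every other mouse for Lox. The related Loxl2 averaged 12.5 ± 2.12, 24.0 ± 9.88 and 10.5 ± 1.30 FPKM, with changes of 0.82 and −1.04 that did not pass (limma adjusted p = 0.374 and 0.0705). Without DSS_ICB 3 and 5 these changes were 0.48 and −0.71 for Loxl2, against 0.93 and −1.13 for Lox. The estimates for DSS_ICB_Fp against DSS_ICB were then −0.45 for P3h1 and −0.40 for Crtap.

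Collagen-degrading enzymes held the genes that passed. Mmp10, a stromelysin that activates collagenases, rose in DSS_ICB (2.23 ± 0.32, limma adjusted p = 0.034) and fell by 2.65 ± 0.32 from DSS_ICB to DSS_ICB_Fp (limma adjusted p = 0.00481). It measured 2.38, 1.90, 2.16, 0.475 and 1.62 FPKM in DSS, 10.1, 8.01, 13.4, 8.46 and 18.9 in DSS_ICB, and 0.780, 0.376, 0.566, 3.35 and 0.644 in DSS_ICB_Fp. No DSS_ICB mouse overlapped either other group. Mmp13, a collagenase that cuts fibrillar collagen, fell by 2.07 ± 0.33 from DSS_ICB to DSS_ICB_Fp (limma adjusted p = 0.0229), and Mmp3, a second stromelysin, fell by 2.67 ± 0.46 (limma adjusted p = 0.034). Group means in DSS, DSS_ICB and DSS_ICB_Fp were 1.86, 10.4 and 1.47 FPKM for Mmp13 and 4.25, 18.5 and 1.85 FPKM for Mmp3. The list of 12 tested enzymes and inhibitors, where 8 genes were higher and 8 lower at an unadjusted p under 0.05 by limma in the respective comparisons (7.08% and 12.4% over all tested genes), had 1 call higher for DSS_ICB against DSS (0.0209% over all tested genes) and 3 lower for DSS_ICB_Fp against DSS_ICB (0.125%), with medians of 0.65 and −0.76. Without DSS_ICB 3 and 5 the enzyme medians were 0.41 and −0.62. Of the calls only Mmp10 (−2.34, limma adjusted p = 0.0221) and Mmp13 (−1.53, limma adjusted p = 0.0327) then passed, both for DSS_ICB_Fp against DSS_ICB. Mmp3 in that comparison was −2.19 (limma adjusted p = 0.181), and Mmp10 for DSS_ICB against DSS was 1.91 (limma adjusted p = 0.297). The Mmp10 call for DSS_ICB against DSS held in 8 of 26 alternatives and ended without any 1 of the DSS mice, DSS_ICB 1, 2, 3 or 5, or DSS_ICB_Fp 1, 3 or 5 (limma adjusted p of 0.00535 to 0.297 over all alternatives). For DSS_ICB_Fp against DSS_ICB the calls held in 25 alternatives for Mmp10, 18 for Mmp13 and 12 for Mmp3. The Mmp13 call ended without DSS_ICB 3 or without DSS_ICB_Fp 1, 2, 3 or 5, with a limma adjusted p of 0.00986 to 0.212 over all alternatives. The Mmp3 call ended without DSS 1, 2 or 4, without DSS_ICB 3 or 5, or without DSS_ICB_Fp 1, 2, 3 or 5, with a limma adjusted p of 0.0126 to 0.181.

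In the remaining lists 0 genes passed in any comparison. Median changes for DSS_ICB against DSS and for DSS_ICB_Fp against DSS_ICB were 0.32 and −0.56 for 13 fibril-organising proteins, 0.42 and −0.60 for 13 basement membrane partners, 0.30 and −0.42 for 7 collagen receptors, and 0.37 and −0.25 for 15 genes of TGF-beta signalling, a driver of collagen synthesis. Genes among those with the smallest p in their list from DSS_ICB to DSS_ICB_Fp were Bgn and Sparc (−0.97 and −0.99), which bind fibrils, Lamb1 and Lama4 (−0.89 and −0.60), laminin chains, Mrc2 and Ddr2 (−0.42 and −1.01), collagen receptors, and Tgfbr2 (−0.59), a TGF-beta receptor. Their limma adjusted p ran from 0.0712 to 0.154. Without DSS_ICB 3 and 5 the changes were −0.64 for Bgn, −0.64 for Sparc, −0.60 for Lamb1 and −0.28 for Lama4. They were −0.22 for Mrc2, −0.36 for Ddr2 and −0.32 for Tgfbr2. The list medians without DSS_ICB 3 and 5 were nearer 0, at −0.063 and −0.22 for fibril-organising proteins, 0.012 and −0.28 for basement membrane partners, 0.050 and −0.18 for receptors, 0.10 and −0.058 for TGF-beta signalling, 0.073 and −0.14 for collagen maturation and 0.36 and −0.39 for processing and cross-linking.

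Markers of cells that make collagen were measured beside the collagens, and their part in the result was not tested. Median changes of the markers for DSS_ICB against DSS and for DSS_ICB_Fp against DSS_ICB were 0.65 and −0.74 for 10 endothelial genes, 0.73 and −0.80 for 6 pericyte genes, 0.36 and −0.40 for 9 fibroblast genes, 0.20 and −0.30 for 10 smooth muscle genes and 0.29 and −0.33 for 5 glial genes. Epithelial markers ran the other way, with medians of −0.70 and 0.69 over 8 genes. No gene of these 6 lists passed in any comparison. The medians without DSS_ICB 3 and 5 were 0.32 and −0.43 for endothelium, 0.22 and −0.22 for pericytes, 0.17 and −0.23 for fibroblasts and −0.099 and 0.13 for epithelium. Those of smooth muscle, at −0.62 and 0.52, and of the 4 glial genes still tested, at −0.26 and 0.11, had the opposite sign. Summed endothelial markers were 31.1 to 68.9 FPKM in DSS, 57.9 to 136 in DSS_ICB and 34.8 to 58.5 in DSS_ICB_Fp, and summed pericyte markers were 30.1 to 58.5, 42.0 to 225 and 27.9 to 48.1. Neutrophil markers had median changes of 2.46 and −3.52 over 5 tested genes. All 5 were lower in DSS_ICB_Fp than in DSS_ICB at an unadjusted p under 0.05 by limma (12.4% of all tested genes). By the same count 9 of 10 endothelial, 5 of 6 pericyte, 4 of 9 fibroblast and 0 of 10 smooth muscle genes were lower. Without DSS_ICB 3 and 5 these 4 counts were 3, 1, 2 and 0 (14.3% of the genes tested). Of the neutrophil genes, 4 passed as lower (0.125% of all tested genes). The neutrophil marker sum was 122 to 1989 FPKM in DSS_ICB against at most 55.1 elsewhere. Neutrophil medians without DSS_ICB 3 and 5 were 1.85 and −3.57, over 4 tested genes. Macrophage markers (0.13 and −0.49 over 6 genes) and adipocyte markers (0.52 and 0.17 over 4 genes) had no calls. Leaving out DSS_ICB 3 and 5 gave medians of 0.11 and −0.51 for macrophages and of 0.49 and 0.13 over 3 adipocyte genes.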

How the data were processed

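RNA from colon tissue of 15 mice was sequenced, 1 library per mouse. The authors deposited FPKM per gene and mouse. Per the submitters' processing notes, FastQC, STAR 2.5, Cuffnorm, DESeq and mm10 were used. Whether Cuffnorm scaled the libraries further, and the counting of multiply mapped reads, is not stated. Library depth is not given in the sources used here. It was estimated from 10677 genes with 1 transcript of 1000 bases or more. The most common binned value of FPKM times transcript length was taken as 1 fragment. No 2 libraries held identical values.

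Values were analysed as log2(FPKM + 1), which understates changes of low genes, for 14385 genes at 1 FPKM or more in at least 5 libraries. limma 3.58.1 in R 4.3.3, using a trended, robust variance prior, gave 1 fit over all 15 libraries. Tests were two-sided with Benjamini-Hochberg adjustment over all tested genes. The fit was also run on simulated data, drawn gene by gene with the same SD in all groups. That run cannot show how the fit handles a wider spread in DSS_ICB or genes that vary together. Chain ratios were compared by exact permutation over 252 arrangements. The limma p-values set each change against the spread between mice within groups. For each gene that spread was 1 value shared by all groups, moderated by the variance prior, although the groups could differ in spread. The permutation p-values rest only on the mice of the compared groups. The collagen classes, gene lists, tests and alternatives were chosen with earlier results of these data known.

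Values in every mouse are printed for collagens called in any comparison, for the 3 of each class with the highest mean or the smallest p, and for both chains of each ratio. In each pathway list, called genes and the 2 with the smallest p in DSS_ICB_Fp against DSS_ICB are named, except 1 gene that is not reported here. Mmp8 is in the neutrophil and enzyme lists, and Lum and Dcn are in the fibroblast and fibril-organising lists. Alternatives were 3 other scalings, a pseudocount of 0.1 or of 10, a filter at 5 FPKM or none, array weights by group or by sample, the 2 compared groups only, and leaving out libraries, for collagens. Applying these to the named pathway genes, and leaving out DSS_ICB 3 and 5 for ratios and lists, was chosen after seeing the data.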

Additional observations from a re-analysis of the deposited data

Results flagged for a closer look

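In 102 groups of 5 values (the 24 tested collagens, the sum of all collagens, the 3 class sums and the 6 ratios, in each treatment group), 7 had 1 mouse whose gap to the nearest other mouse was over 0.71 of the range of its group. Chance gives about 1 in 20 such groups. DSS_ICB 3 stood out for Col1a1 at 130 FPKM, with the others at 51.2 to 71.9, and for Col16a1 at 26.3 FPKM, with the others at 8.13 to 12.5. DSS 3 stood out for Col27a1 at 2.54 FPKM (others 1.25 to 1.54), and DSS_ICB_Fp 5 for Col6a4 at 1.54 FPKM (others 0.581 to 0.839). DSS 2 stood out for the ratios of Col3a1 to Col1a1, at 5.01 (others 2.62 to 3.27), and of Col5a2 to Col1a1, at 0.58 (others 0.228 to 0.317). DSS 4 stood out for the ratio of Col4a2 to Col4a1, at 1.01 (others 0.635 to 0.721).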

How the results depend on the processing

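The count of collagens that passed for DSS_ICB_Fp against DSS_ICB, 1 in the analysis reported, was 0 after rescaling without mitochondrially encoded genes, with a pseudocount of 10, with no filter, with the 2 compared groups only and without DSS_ICB 3 and 5 together. It was 2 with a pseudocount of 0.1, 4 with array weights by sample and 0 to 4 when 1 library was left out. Of all tested genes, 42 of 14385 were called lower with a pseudocount of 0.1 and 743 of 14385 with array weights by sample. It was 4 without DSS_ICB 1, DSS_ICB 2 or DSS_ICB 4, and 3 without DSS_ICB_Fp 4. The genes called lower in these settings, in that order, were 361 of 14309 tested, 107 of 14291, 72 of 14279 and 331 of 14325. In the other 2 comparisons it stayed at 0 under every alternative run.

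The median collagen change was 0.13 (DSS_ICB against DSS) and −0.15 (DSS_ICB_Fp against DSS_ICB) with no filter, where all 44 genes enter, and 0.19 and −0.37 without DSS_ICB 3 and 5. It was 0.29 and −0.51 with array weights by sample, 0.31 and −0.40 with a pseudocount of 10, and 0.35 and −0.58 without DSS_ICB 3. Over all tested genes, calls lower for DSS_ICB_Fp against DSS_ICB numbered 18 in the analysis reported, 0 with the 2 compared groups only, 743 with array weights by sample, 361 without DSS_ICB 1, 331 without DSS_ICB_Fp 4 and 107 without DSS_ICB 2. Calls higher numbered 1 in the analysis reported and 221, 226, 125 and 26 under these last 4.

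Estimates near 0 changed sign, and the cause was not tested. For DSS_ICB against DSS, Col4a5 became −0.0093 with median-of-ratios scaling, −0.0046 without mitochondrial genes, −0.0084 with a pseudocount of 0.1, −0.24 with array weights by sample and −0.38 without DSS_ICB 3 and 5. Col4a6 became 0.010 with a pseudocount of 10, Col23a1 −0.012 with array weights by sample, and without DSS_ICB 3 and 5 Col9a2 became −0.18, Col23a1 −0.13 and Col28a1 −0.13. For DSS_ICB_Fp against DSS_ICB, array weights by sample gave 0.23 for Col4a5 and 0.094 for Col4a6. Without DSS_ICB 3 and 5 the values were 0.30 for Col4a5, 0.17 for Col4a6, 0.075 for Col23a1 and 0.10 for Col28a1.

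Leaving out 1 library gave, for DSS_ICB against DSS, ranges of −0.22 to 0.18 for Col4a5, −0.21 to 0.14 for Col4a6, −0.0016 to 0.36 for Col9a2 and −0.039 to 0.25 for Col23a1. For DSS_ICB_Fp against DSS_ICB they were −0.26 to 0.14 for Col4a5, −0.27 to 0.074 for Col4a6 and −0.13 to 0.23 for Col9a2. For DSS_ICB_Fp against DSS they were −0.24 to 0.0049 for Col4a5, −0.18 to 0.051 for Col6a2, −0.15 to 0.089 for Col16a1, −0.18 to 0.075 for Col23a1, −0.12 to 0.048 for Col27a1 and −0.17 to 0.090 for Col28a1. Ratio differences, none past the threshold, ranged from −0.22 to 0.047 (Col3a1 to Col1a1) and −0.14 to 0.027 (Col4a2 to Col4a1) for DSS_ICB against DSS. They ranged from −0.22 to 0.033 (Col3a1 to Col1a1) for DSS_ICB_Fp against DSS_ICB. For DSS_ICB_Fp against DSS the ranges were −0.084 to 0.036 (Col1a1 to Col1a2), −0.25 to 0.087 (Col5a2 to Col1a1) and −0.040 to 0.13 (Col4a2 to Col4a1). No paired analysis was possible because mouse numbers come from accession order. The depth limits collagens under 1 FPKM, which were not tested.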
